A study of Mus musculus with 3 samples.

Results

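The genes described here are 45 genes whose products copy DNA or supply the nucleotides for it. They were chosen by function, from the MCM2-7 helicase to the enzymes of deoxynucleotide synthesis, and each was found by its symbol among the 16072 named genes of the table. Of the 45, 39 had a mean level of at least 1 FPKM over the 3 libraries (FPKM is the number of fragments scaled by transcript length and by the mapped total of the library), as did 9130 genes in all. The other 6 (Orc1, Gins1, Gins3, Pola1, Pole and Pole2) lay below that level and are given by their values.

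RNA was sequenced from Ly6G+ myeloid cells of the bone marrow of C57BL/6 mice. All mice carried subcutaneous B16.F10 melanoma cells, given 1 week before an injection of adeno-associated virus (AAV) vector into muscle. AAV-ctrl was an empty vector, and AAV-IL27 carried mouse IL-27, a cytokine of the EBI3 and p28 chains joined by a linker, under the ubiquitous CAG promoter. The cells were collected 3 weeks after the vector. There were 2 AAV-ctrl libraries (AAV-ctrl 1 and AAV-ctrl 2) and 1 AAV-IL27 library. No test was run, since a single AAV-IL27 library has no replicate, and differences are set beside the gap between the AAV-ctrl libraries, which covers mouse-to-mouse and technical spread together.

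In a dividing cell, replication starts at origins to which the origin recognition complex, CDC6 and CDT1 load the ring-shaped MCM2-7 complex. CDC45 and the GINS proteins turn that ring into the active helicase, DNA polymerase alpha with primase lays down primers, polymerases delta and epsilon extend them, and the sliding clamp PCNA keeps the polymerases on DNA. Many of these genes are transcribed around the entry into S phase under E2F transcription factors. In bone marrow the early precursors of granulocytes, red cells and B cells divide, whereas mature neutrophils, which carry Ly6G, no longer do.

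Estimated depth was 19200000 fragments for AAV-ctrl 1, 19400000 for AAV-ctrl 2 and 19200000 for AAV-IL27, and in the same order 9206, 9337 and 8773 genes reached 1 FPKM. The labelled cell type was checked against its markers. Ly6g was at 711.76 and 766.11 FPKM after AAV-ctrl and 586.29 FPKM after AAV-IL27, 79.3% of the AAV-ctrl mean. S100a9 was at 73508.41, 71786.08 and 68764.99 FPKM. The summed level of 9 mature neutrophil markers in the AAV-IL27 library was 95.5% of the AAV-ctrl mean. S100a8 and S100a9 make up most of that sum. RNA of other marrow cells was also present and differed between the groups, with values given beside the results below.

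Most of the replication genes were lower in the AAV-IL27 library. Differences are on the log2(FPKM + 1) scale, which understates the change of low genes. Of the 39 genes, 10 lay at least 1 unit below both AAV-ctrl libraries (25.6%), against 2.32% of all genes tested, and 25 lay at least 0.5 below both (64.1%), against 7.01%. They were Mcm2, Mcm3, Mcm5, Mcm6, Mcm7, Pcna, Lig1, Rrm1, Rrm2 and Uhrf1 at the larger step. The filter is a mean over the 3 libraries, so 9 of the 39 genes passed it although they were under 1 FPKM in the AAV-IL27 library. Of these 9, 7 are among the 25 and 0 among the 10. Without a filter 10 of 45 lay at least 1 unit below both, against 1.33% of all genes. In all, 36 of 39 were below both AAV-ctrl libraries by any amount (92.3%), against 41.9% of all genes. None was at least 1 above both, against 0.307% of all genes, and Gins4 and Rfc2 were above both by any amount, 5.13% of the 39 against 38.9% of all genes. Tyms alone lay between the AAV-ctrl libraries.

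The median difference of the 39 genes from the AAV-ctrl mean was -0.69, with quartiles of -1.10 and -0.43 and a range from -1.82 to 0.23, whereas the median of all genes tested was -0.0054. On the linear scale 21 of the 39 were under 50% of the AAV-ctrl mean, against 5.67% of all genes tested, and the median gene of the 39 was at 47% of it. Of the 9 genes under 1 FPKM in the AAV-IL27 library, 7 are among these 21. The gap between the AAV-ctrl libraries had a median size of 0.087 over all genes and a 99th percentile of 0.57, and 25 of the 39 differences of the AAV-IL27 library were larger in size than that percentile, as were those of 9.01% of all genes tested. The AAV-ctrl libraries were not alike, however. Of the 39 genes, 33 were higher in AAV-ctrl 2 than in AAV-ctrl 1, as were 4595 of all 9130 genes tested. The median of AAV-ctrl 2 less AAV-ctrl 1 was 0.14 over the 39 and 0.0016 over all genes.

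**Figure D1:**
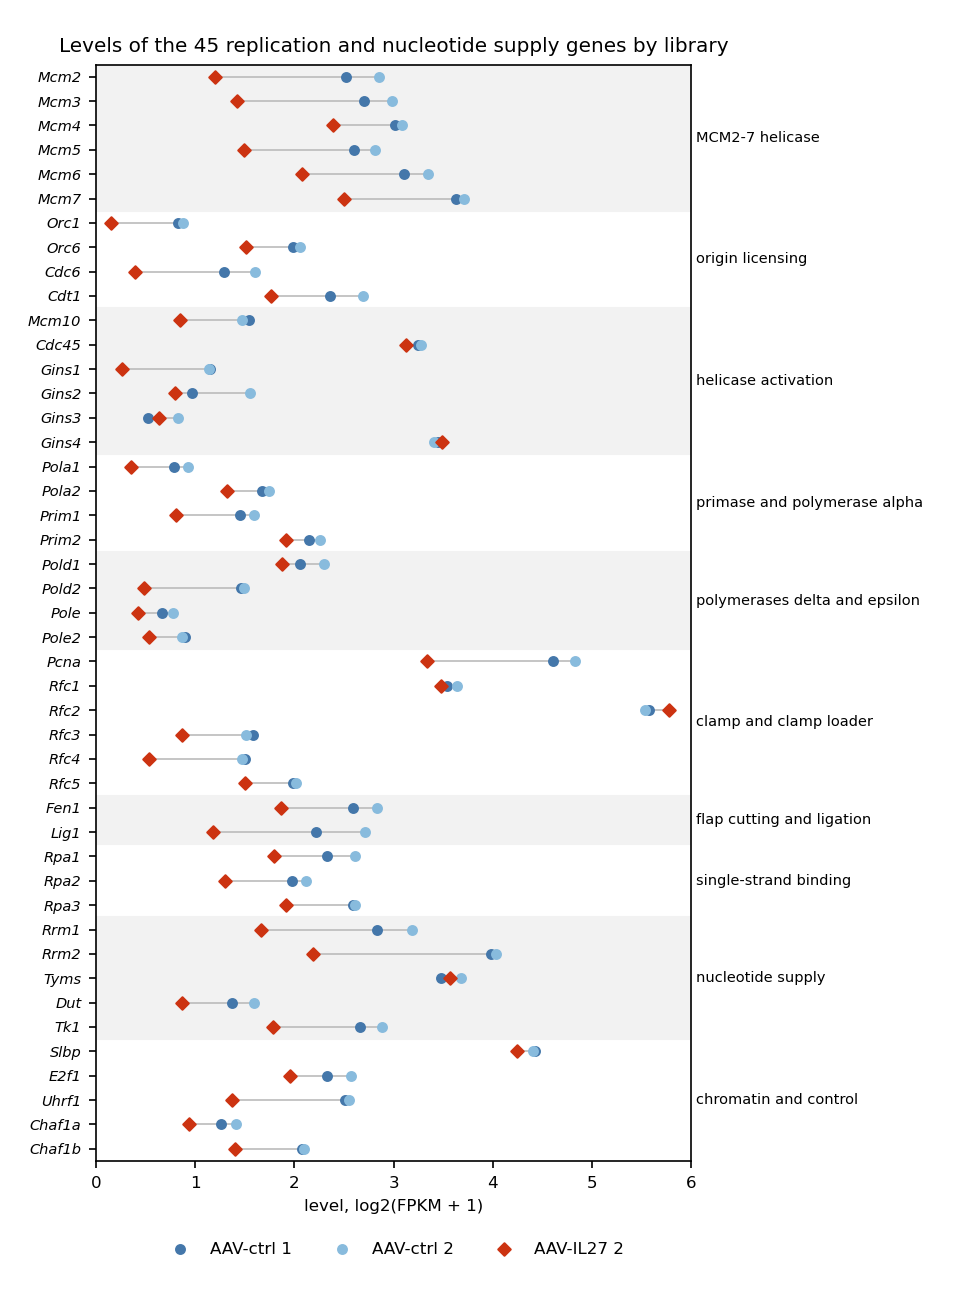
Level of each of the 45 genes in each library on the log2(FPKM + 1) scale, grouped by role, with circles for AAV-ctrl 1 and AAV-ctrl 2 and diamonds for the AAV-IL27 library. The diamond lies left of both circles for 41 of the 45 genes, and right of both for Gins4 and Rfc2. Among the 39 genes of at least 1 FPKM on average it lies left of both for 36, against 41.9% of all such genes. It lies right of both for 2 of the 39, against 38.9% of all such genes.

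**Figure D2:**
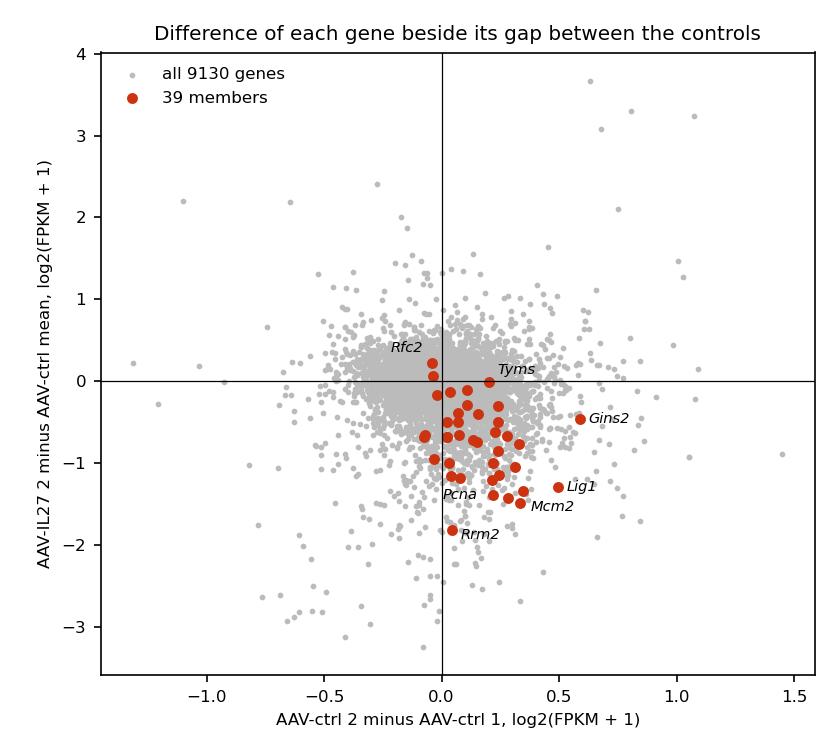
Each point is a gene of at least 1 FPKM on average, placed by the difference between the AAV-ctrl libraries (horizontal) and the difference of the AAV-IL27 library from their mean (vertical), both in log2(FPKM + 1) units. The 39 replication genes lie mostly below 0 on the vertical axis (median -0.69) and slightly right of 0 on the horizontal axis (median 0.14).

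Promoters of 4 of the genes are shown because they stand at the ends of the range: Rrm2, Mcm2 and Mcm3 had the largest falls below the nearer AAV-ctrl library, and Tyms the difference closest to 0. Each window runs from 250 bases before to 50 bases after a RefSeq transcript start (build GRCm38.p6), which for Tyms lies inside the bounds given for the gene below, and is written 5′ to 3′ on the gene's strand. Capitals mark matches to 2 kinds of motif on either strand, the E2F letters (TTTCCCGC, TTTGGCGC, TTTCGCGC or TTTGCCGC) and the CCAAT box, which reads ATTGG on the other strand. The windows are chr12:24708004-24708303 on the plus strand for Rrm2, and, on the minus strand, chr6:88898731-88899030 for Mcm2, chr1:20820263-20820562 for Mcm3 and chr5:30073576-30073875 for Tyms.
Rrm2: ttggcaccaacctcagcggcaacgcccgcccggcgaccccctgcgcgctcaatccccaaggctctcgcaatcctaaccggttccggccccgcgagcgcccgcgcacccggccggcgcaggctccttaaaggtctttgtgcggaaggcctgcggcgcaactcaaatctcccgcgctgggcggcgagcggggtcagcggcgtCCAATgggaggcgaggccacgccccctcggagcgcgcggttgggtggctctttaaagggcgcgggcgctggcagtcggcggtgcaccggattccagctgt
Mcm2: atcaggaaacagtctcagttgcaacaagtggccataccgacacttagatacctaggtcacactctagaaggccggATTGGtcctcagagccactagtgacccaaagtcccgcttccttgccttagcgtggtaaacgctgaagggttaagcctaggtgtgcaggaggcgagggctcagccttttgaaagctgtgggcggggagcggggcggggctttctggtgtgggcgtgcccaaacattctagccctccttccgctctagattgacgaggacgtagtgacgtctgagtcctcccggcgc
Mcm3: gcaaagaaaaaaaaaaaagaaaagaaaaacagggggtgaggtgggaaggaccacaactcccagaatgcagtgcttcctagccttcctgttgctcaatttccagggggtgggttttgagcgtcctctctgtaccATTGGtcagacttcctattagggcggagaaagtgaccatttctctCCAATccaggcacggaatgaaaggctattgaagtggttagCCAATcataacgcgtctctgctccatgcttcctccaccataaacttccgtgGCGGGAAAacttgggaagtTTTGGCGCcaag
Tyms: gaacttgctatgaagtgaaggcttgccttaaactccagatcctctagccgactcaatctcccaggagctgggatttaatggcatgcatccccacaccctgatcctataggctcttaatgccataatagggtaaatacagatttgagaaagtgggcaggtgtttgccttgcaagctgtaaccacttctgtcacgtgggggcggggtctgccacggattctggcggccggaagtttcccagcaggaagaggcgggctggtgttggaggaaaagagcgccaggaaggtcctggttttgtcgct
Counted with 0 at the first transcribed base, Rrm2 held CCAAT from position -50 and Mcm2 held ATTGG from -175. Mcm3 held CCAAT boxes from -117, -72 and -32 and E2F letters from 19 and 38. In Tyms none of these letters occurred in the window, which says nothing of factors that bind elsewhere or to other letters.

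The MCM2-7 helicase, the 6-subunit ring that unwinds the double strand, was below both AAV-ctrl libraries in all 6 subunits. Over all genes tested, 41.9% were below both. Mcm2 (chr6:88883474-88898780) was at 4.73 and 6.23 FPKM in AAV-ctrl 1 and 2 and at 1.30 FPKM in AAV-IL27, a difference of -1.48. Mcm3 (chr1:20802966-20820312) was at 5.51, 6.93 and 1.68 FPKM in the same order, a difference of -1.42. Mcm5 (chr8:75109468-75128439) had 5.05, 6.02 and 1.82 FPKM, a difference of -1.21. These subunits were at 23.7%, 27% and 32.9% of their AAV-ctrl means. Mcm6 (chr1:128331575-128359705) had 7.60, 9.18 and 3.22 FPKM and a difference of -1.15. Mcm7 (chr5:138164583-138172111) had 11.41, 12.10 and 4.64 FPKM and a difference of -1.18. Mcm4, at 7.06, 7.49 and 4.25 FPKM, was the subunit with the smallest difference, -0.66, and the one of the 6 that did not lie 1 unit below both AAV-ctrl libraries. Because FPKM is divided by length, the 6 levels can be added: they summed to 41.36 and 47.95 FPKM after AAV-ctrl and 16.91 FPKM after AAV-IL27, 37.9% of the AAV-ctrl mean. Mcm4, Mcm6 and Mcm7 each have 1 pseudogene with a near-identical stretch, and 7.25% of the exon bases of Mcm7 lie opposite exons of Ap4m1.

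Origin licensing is the loading of the MCM2-7 ring, still inactive, at origins. Cdc6, which loads the MCM ring, was at 1.44 and 2.03 FPKM after AAV-ctrl and 0.31 FPKM after AAV-IL27, 17.9% of their mean, with a difference of -1.05 from that mean and -0.90 from the nearer library. Cdt1, its partner in loading, was at 4.13, 5.44 and 2.39 FPKM, a difference of -0.76. Orc6, a small subunit of the origin recognition complex, was at 2.95, 3.15 and 1.86 FPKM, a difference of -0.50. The large subunit Orc1 lay under the filter, and its 0.77, 0.84 and 0.11 FPKM correspond to an estimated 44, 48 and 6 fragments. The exact 95% Poisson interval ran from 2.2 to 13.1 fragments for the last value and started at 32 and 35.4 for the AAV-ctrl libraries. The values were not tested as counts. At 13.7% of the AAV-ctrl mean, Orc1 was the lowest of the 45 genes on the linear scale. These intervals cover counting error alone.

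The genes that activate the helicase differed among themselves in the size of their difference. Mcm10, an activator of the loaded helicase, was at 1.91 and 1.77 FPKM after AAV-ctrl and 0.80 FPKM after AAV-IL27, a difference of -0.66. Cdc45, which joins MCM2-7 and GINS in the active helicase, was at 8.47, 8.70 and 7.74 FPKM, 90.2% of the AAV-ctrl mean. Of its exon bases, 5.96% lie opposite exons of Ufd1. The 4 GINS subunits, which form 1 complex, had unlike values. Gins1 was at 1.22, 1.20 and 0.20 FPKM, an estimated 24, 24 and 4 fragments, with an interval of 1.09 to 10.2 for the last. Gins4 was at 9.90, 9.62 and 10.25 FPKM, above both AAV-ctrl libraries by 0.05. Gins3, at 0.44, 0.77 and 0.55 FPKM, lay between them, and at an estimated 21, 37 and 26 fragments no difference was detectable at this depth. Gins2 was at 0.95, 1.93 and 0.74 FPKM, and its gap between the AAV-ctrl libraries, 0.59, was larger than its difference of -0.46. Exons of Gse1 on the opposite strand cover 67.3% of the exon bases of Gins2, and Gse1 was at 20.39, 20.54 and 27.20 FPKM.

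Polymerase alpha with primase makes the short primers. Its primase subunit Prim1 was at 1.74 and 2.01 FPKM after AAV-ctrl and 0.75 FPKM after AAV-IL27, 40% of their mean and a difference of -0.71. The other primase subunit, Prim2, was at 3.44, 3.79 and 2.76 FPKM, 76.3% of the mean and a difference of -0.29. Pola2, the accessory subunit of the polymerase, was at 2.19, 2.35 and 1.5 FPKM, a difference of -0.39. The catalytic subunit Pola1 had 0.73, 0.90 and 0.28 FPKM. In each of these 4 genes the AAV-IL27 library lay below both AAV-ctrl libraries, as it did in 41.9% of all genes of at least 1 FPKM.

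Polymerases delta and epsilon copy the lagging and the leading strand. Pold2, an accessory subunit of polymerase delta, was at 1.76 and 1.82 FPKM after AAV-ctrl and 0.40 FPKM after AAV-IL27, 22.3% of their mean, and fell just short of the 1-unit step with a difference of -0.98 from the nearer library. Its catalytic partner Pold1 was at 3.17, 3.92 and 2.66 FPKM, 75% of the mean, so the subunits of 1 enzyme differed in size of change. Pole and Pole2, the catalytic and an accessory subunit of polymerase epsilon, were both under the filter. Pole was at 0.59, 0.71 and 0.34 FPKM, and Pole2 at 0.86, 0.83 and 0.45 FPKM.

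The sliding clamp fell by more than 1 unit below both AAV-ctrl libraries. Of the 5 subunits of its loader 0 did, and of all genes tested 2.32% did. A count of 0 in 5 is near that share and does not set the loader apart. Which genes reach the step also depends on the scale, as the values of Rfc4 show. Pcna (chr2:132249286-132253180), the clamp, was at 23.42 and 27.39 FPKM after AAV-ctrl and 9.09 FPKM after AAV-IL27, 35.8% of their mean and a difference of -1.38. Replication factor C opens the clamp and sets it on DNA, with Rfc1 as its large subunit and Rfc2 to Rfc5 as its small ones. Rfc4 was at 1.84, 1.78 and 0.45 FPKM, a difference of -0.95 but 24.9% of its AAV-ctrl mean, lower than the 35.8% of Pcna. Rfc3 was at 2.00, 1.85 and 0.82 FPKM, a difference of -0.68. With 0.1 added to FPKM in place of 1, the difference was -1.80 for Rfc4, -1.14 for Rfc3 and -1.47 for Pcna. On that scale it was -0.69 for Rfc5, -0.12 for Rfc1 and 0.23 for Rfc2. Rfc5, at 2.97, 3.04 and 1.83 FPKM, had a difference of -0.50. Rfc1, at 10.59, 11.48 and 10.16 FPKM, was at 92.1% of the AAV-ctrl mean. Rfc2 had the highest level of the 45 genes, 46.64 and 45.31 FPKM after AAV-ctrl and 53.97 FPKM after AAV-IL27, and its difference of 0.23 was the highest of the 45. Of its exon bases 15.1% lie opposite those of Lat2, which was at 3.22, 3.26 and 3.53 FPKM. Low genes overlap stronger ones: 12.7% of the exon bases of Rfc4 lie opposite Eif4a2, at 67.49, 71.70 and 71.53 FPKM. For Rfc5 10.7% lie opposite Wsb2, at 23.98, 22.89 and 24.43 FPKM. Since Rfc2 and Rfc1 make up most of the sum, the summed level of clamp and loader in the AAV-IL27 library was 85.6% of the AAV-ctrl mean, although the median difference of the 6 genes was -0.59.

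Okazaki fragments, the short pieces of the lagging strand, are trimmed and joined by FEN1 and DNA ligase I. Lig1 (chr7:13277175-13311426), the ligase, was at 3.65 and 5.56 FPKM after AAV-ctrl and 1.26 FPKM after AAV-IL27, 27.4% of their mean and a difference of -1.29. The AAV-ctrl libraries differed by 0.50 for this gene, so its distance to the nearer one was -1.04. Fen1, the flap endonuclease, was at 5.04, 6.14 and 2.63 FPKM, 47% of the mean and a difference of -0.86. An antisense gene overlaps 78.8% of the exon bases of Fen1. Single-stranded DNA is covered by the 3 subunits of replication protein A, and these were close to each other in size of difference. Rpa1 was at 4.03, 5.10 and 2.48 FPKM, Rpa2 at 2.92, 3.35 and 1.46 FPKM, and Rpa3 at 5.02, 5.12 and 2.77 FPKM. Their differences were -0.67, -0.75 and -0.69, and their summed level was 52.5% of the AAV-ctrl mean.

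Among the genes of nucleotide supply, both subunits of ribonucleotide reductase, the enzyme that makes deoxynucleotides from ribonucleotides, fell. Rrm2 (chr12:24708254-24714146), the small subunit, was at 14.81 and 15.31 FPKM after AAV-ctrl and 3.54 FPKM after AAV-IL27, or an estimated 603, 631 and 144 fragments. That is 23.5% of the AAV-ctrl mean, and its difference of -1.82 was the largest of the 45 genes on the log2(FPKM + 1) scale. On the linear scale Orc1 (13.7%), Gins1 (16.5%), Cdc6 (17.9%) and Pold2 (22.3%) were lower. By its distance to the nearer AAV-ctrl library, -1.80, Rrm2 ranked 53rd among the falls of all genes tested. Rrm1 (chr7:102441695-102469771), the large subunit, was at 6.14, 8.09 and 2.17 FPKM, 30.5% of the mean and a difference of -1.35. Tk1, the thymidine kinase of dividing cells, was at 5.34, 6.39 and 2.44 FPKM, a difference of -0.99. Dut, which removes dUTP and so keeps uracil out of DNA, was at 1.58, 2.02 and 0.82 FPKM, a difference of -0.62. Tyms (chr5:30038546-30073645), which makes thymidylate, was at 10.14, 11.82 and 10.84 FPKM, 98.7% of the AAV-ctrl mean. The value of Tyms is uncertain, since stretches of at least 200 bases at 90% identity or more to its transcripts occur in transcripts of 174 other genes, 51 of them in the table.

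The last group holds a regulator of the others and proteins tied to the packaging of new DNA, its methylation or histone mRNA. Uhrf1 (chr17:56303337-56323486), which brings the maintenance DNA methyltransferase to newly copied DNA, was at 4.70 and 4.86 FPKM after AAV-ctrl and 1.59 FPKM after AAV-IL27, 33.3% of their mean and a difference of -1.16. Chaf1b, a subunit of chromatin assembly factor 1, was at 3.21, 3.28 and 1.64 FPKM, a difference of -0.69. The larger subunit Chaf1a was at 1.39, 1.66 and 0.91 FPKM, a difference of -0.40. Exons of Ubxn6, which was at 24.29, 25.17 and 25.04 FPKM, lie opposite 52.5% of the exon bases of Chaf1a. E2f1, a transcription factor of the S-phase programme, was at 4.03, 4.95 and 2.89 FPKM, 64.4% of the mean and a difference of -0.49. Slbp, which binds the stem-loop at the end of histone mRNAs, was at 20.44, 20.18 and 17.99 FPKM, 88.6% of the mean.

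Reads shared with other genes bear on some of these values. By GENCODE M21, 12 of the 45 genes share exon bases with a protein-coding gene, most of them on the opposite strand, and 13 have a near-identical stretch in a transcript elsewhere. The libraries were strand-marked, but whether strand was used in counting is not given in the sources used here. Of the 10 genes lower by 1 unit, Mcm2, Mcm3, Mcm5 and Rrm1 have neither kind of shared sequence, and Mcm6, Mcm7, Pcna, Rrm2 and Uhrf1 each match 1 pseudogene that is not among the table's genes. Exons of Zswim9 lie opposite 5.79% of the exon bases of Lig1. The 19 genes of at least 1 FPKM without any had a median difference of -0.68.

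Motif matches were counted over the promoter windows of the 38 replication genes that have one in the table, 44 windows in all. The E2F letters occurred in 14 of the 44 windows (31.8%), against 3.88% of the 9076 windows of genes of at least 1 FPKM and 2.26% of all 32851 windows. Mcm6 held 3 matches, and Mcm3, Mcm5, Rfc3 and one of the windows of Mcm7 held 2 each. The letters CCAAT occurred in 26 windows (59.1%), against 37.6% and 37.4%. The CHR letters TTTGAA, a motif of genes used late in the cell cycle, occurred in 5 windows (11.4%), against 11.9% and 17.9%. Of the 30 windows of genes of at least 1 FPKM and at least 0.5 below both AAV-ctrl libraries, 9 held the E2F letters. Of the 10 windows of the other genes of at least 1 FPKM, 1 did. The windows of Orc1, Pola1, Pole2 and Gins3, which lay under the filter and are in neither group, each held the E2F letters. The groups were not compared by a test. A match describes the letters in the window and is not a measured binding site. Rrm2, with the largest difference on the log2(FPKM + 1) scale, had no E2F match in its window.

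**Figure D3:**
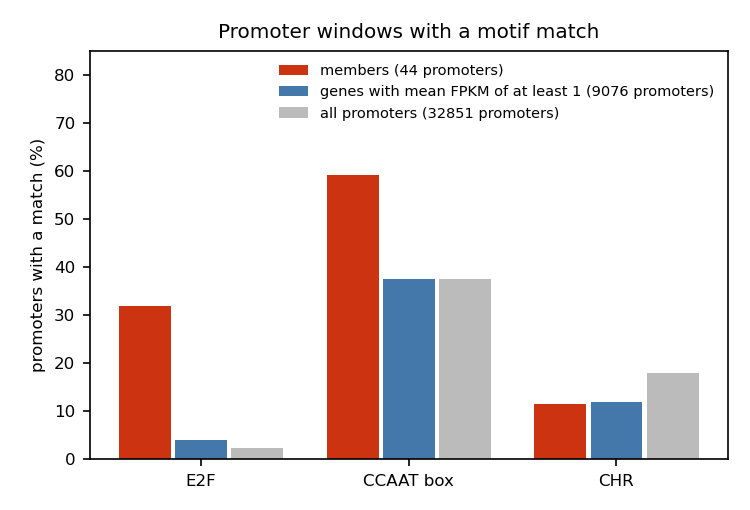
Bars give the percentage of promoter windows (250 bases before to 50 after the start) that hold each motif, for the 44 windows of the replication genes, the 9076 windows of genes of at least 1 FPKM and all 32851 windows. The E2F bars stand at 31.8%, 3.88% and 2.26%, and the CHR bars at 11.4%, 11.9% and 17.9%.

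Further genes of the same processes were compared in lists chosen by function. Of 26 other replication genes of at least 1 FPKM, 0 were 1 unit and 5 were 0.5 below both AAV-ctrl libraries (2.32% and 7.01% of all genes were), and the median difference was -0.32. Gmnn, the inhibitor of CDT1, was at 3.84, 4.30 and 1.46 FPKM, a difference of -1.04 from the AAV-ctrl mean and -0.98 from the nearer library. Dnmt1, the maintenance methyltransferase that UHRF1 guides, was at 9.28, 11.06 and 7.33 FPKM, a difference of -0.42. Of 21 other genes of nucleotide synthesis, 1 was 1 unit lower, Shmt2, a mitochondrial enzyme of the folate cycle, at 3.98, 3.38 and 0.81 FPKM, and the median was -0.10. At the smaller step 5 of the 21 were 0.5 below both, and over all genes 2.32% and 7.01% were at these steps. In both lists 0 genes were 1 unit above both AAV-ctrl libraries. By any amount, 18 of the 26 were below both and 4 above both, and 13 of the 21 were below and 6 above. Over all genes 41.9% were below both and 38.9% above both.

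Of 22 genes that control the step from G1 to S phase, 2 were 1 unit and 5 were 0.5 lower, against 2.32% and 7.01% of all genes, and the median was -0.28. By any amount 16 were below both AAV-ctrl libraries and 6 above both, against 41.9% and 38.9% of all genes. Tfdp2, a partner of the E2F proteins, was at 4.34, 3.22 and 0.61 FPKM, and Ccna2, the cyclin of S and G2 phase, at 9.76, 11.13 and 4.33 FPKM. The E-type cyclins drive entry into S phase. Ccne1 was at 2.40, 3.20 and 0.88 FPKM, -0.85 from the nearer AAV-ctrl library. Ccne2, under the filter of 1 FPKM and so not among the 22, was at 0.95, 1.07 and 0.28 FPKM. Of 20 genes of mitosis, 20 were below both AAV-ctrl libraries, 13 by 0.5 and 3 by 1 unit, against 41.9%, 7.01% and 2.32% of all genes, with a median of -0.72. The 3 were Nusap1, which bundles spindle microtubules (6.06, 6.48 and 2.23 FPKM), Mki67, the Ki-67 proliferation antigen (17.40, 17.98 and 8.04 FPKM), and Birc5, a subunit of the chromosomal passenger complex (10.23, 13.48 and 4.61 FPKM). The genes of mitosis thus lay at a median close to that of the replication genes, -0.69, and the other replication genes nearer to 0. The differences between lists were not tested.

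Markers of erythroid cells, B-cell progenitors, macrophages and megakaryocytes were also lower in the AAV-IL27 library. All 19 erythroid markers were at least 1 unit below both AAV-ctrl libraries, as were 2.32% of all genes, with a median of -2.73, and their levels summed to 20632 and 13965 FPKM after AAV-ctrl and 2369 FPKM after AAV-IL27. Without haemoglobin the other 15 summed to 446.7, 370.6 and 48.31 FPKM. By summed level AAV-ctrl 2 was at 67.7% of AAV-ctrl 1 for the erythroid list, 83% for that list without haemoglobin and 110% for the 45 replication genes. It was at 132% for the B-cell progenitor list, 128% for megakaryocyte, 98.8% for macrophage and 117% for granulocyte progenitor markers. For the genes of mitosis it was at 118%. Single erythroid markers went either way between the AAV-ctrl libraries, with Tfrc at 9.32 and 8.12 FPKM and Klf1 at 7.18 and 7.94 FPKM. Of the 13 B-cell progenitor markers, 5 reached 1 FPKM on average and 4 of these were 1 unit lower, with sums over the 13 of 33.09, 43.64 and 6.55 FPKM. Vpreb2 and Rag2 were listed at 0 in the AAV-IL27 library. Of 11 macrophage markers 10 were 1 unit lower (again against 2.32% of all genes, as for each list here), with sums of 814.7, 804.7 and 231 FPKM, and of 4 megakaryocyte markers of at least 1 FPKM 2 were, with sums over the 6 in the list of 24.23, 31.1 and 6.83 FPKM and Gp6 listed at 0 in the AAV-IL27 library. The part of these cells in the lower levels of the replication genes was not tested. In sorted bulk cells, fewer cells of a type and less RNA per cell cannot be told apart.

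Markers of granulocyte progenitors were not lower as a group. Of 8 granulocyte progenitor markers 6 were above both AAV-ctrl libraries, against the 38.9% of all genes, and 1 was below both, with a median of 0.26 and sums of 207.2, 242.1 and 234.9 FPKM. Elane and Mpo, proteins of the primary granules, were at 17.95, 20.90 and 26.11 FPKM and at 26.61, 32.13 and 35.44 FPKM. Fcnb, the marker below both, was at 18.30, 21.35 and 15.32 FPKM, and Cebpe lay between the AAV-ctrl libraries at 119.34, 138.70 and 124.05 FPKM. Of the 7 stem and progenitor markers Kit alone reached 1 FPKM on average, at 5.55, 5.39 and 6.94 FPKM, and Mecom was listed at 0 in the AAV-IL27 library and in AAV-ctrl 1. Under 1 FPKM, Cd34 (1.03, 0.84 and 0.41 FPKM), Sox4 (0.43, 0.66 and 0.25 FPKM), Gata2 (0.78, 0.84 and 0.47 FPKM) and Hlf (0.53, 0.54 and 0.36 FPKM) were below both AAV-ctrl libraries. The median was -0.12 over 6 specific granule genes, -0.05 over 9 mature neutrophil markers and 0.12 over 5 monocyte markers. Of the 7 T and NK cell markers Cd3d alone reached the filter, with a difference of 0.04. Under it, Gzma (0.13, 0.38 and 1.35 FPKM) and Cd8a (0.29, 0.32 and 0.46 FPKM) were above both AAV-ctrl libraries. Cd3e (0.11, 0.23 and 0.08 FPKM) was below both, and Cd3g, Ncr1 and Klrb1c lay between them.

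**Figure D4:**
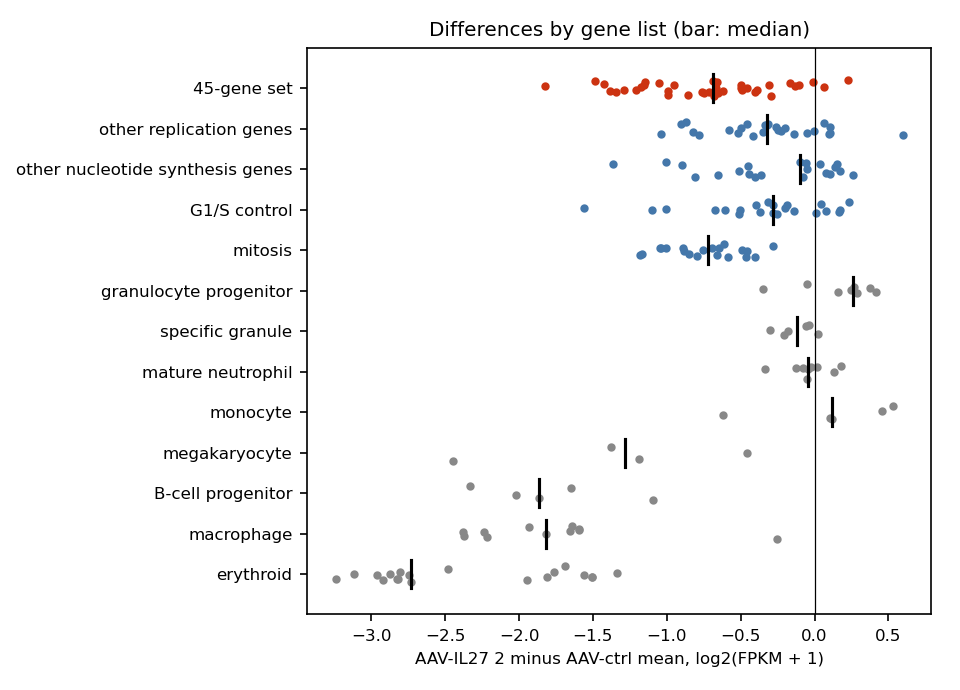
Difference of the AAV-IL27 library from the AAV-ctrl mean in log2(FPKM + 1) units, with 1 point per gene of at least 1 FPKM on average and a bar at the median of each list. Lists with a single such gene are not drawn, and the medians of those drawn run from -2.73 in the erythroid list through -0.72 in mitosis and -0.69 in the 45-gene set to 0.26 in the granulocyte progenitor list.

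The choice of pseudocount changed the count of 10. With 0.1 added in place of 1, 17 of the 39 genes lay at least 1 unit below both AAV-ctrl libraries, and 4.34% of all genes did. With a filter of 5 FPKM in place of 1, 5 of 12 genes did, against 1.54% of all genes, and the median difference was -0.41.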

How the data were processed

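RNA was taken with Trizol from Ly6G+ bone marrow cells, per the labels. The authors selected mRNA with oligo-dT, marked strands with dUTP, sequenced on DNBSEQ and deposited FPKM values, rounded to 2 decimals, in 16073 rows. The 1 row with a blank symbol was left out. The submitters' processing notes name build mm10. The aligner and counter are not given in the sources used here. The table has 1 more column of per-sample values, headed as another AAV-IL27 replicate. The labels count 1 mouse more than the samples they list, no listed sample corresponds to that column, and it was left out.

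A difference is log2(FPKM + 1) in AAV-IL27 less the AAV-ctrl mean of the same measure, over genes with a mean of at least 1 FPKM. Genes were counted at a distance of 1 unit or more (or 0.5) below or above both AAV-ctrl libraries. No test was run. The genes, role groups and lists were chosen with earlier results of these data known. All 45 genes are named. Of the other lists of the cell cycle and nucleotide synthesis, genes at least 1 unit from both AAV-ctrl libraries and Dnmt1, Ccne1, Ccne2 and Gmnn are named, and 1 further gene of that rule is not reported here. Cell type markers named as examples were chosen after their values were seen. Promoters are printed for the 3 largest falls below the nearer AAV-ctrl library and the difference closest to 0.

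Fragments were estimated from FPKM steps over 10934 genes with 1 transcript in GENCODE M21, with 70 nt taken off each length. Near-whole values (within 0.15) made up 73.9%, 76.1% and 71.4% of 326, 318 and 318 low values in AAV-ctrl 1, AAV-ctrl 2 and AAV-IL27, so the numbers of fragments are approximate and were not tested as counts. On simulated data depth was recovered within 0.14%. Gene positions and promoters are from RefSeq (GRCm38.p6, the assembly that mm10 holds), with promoters for 38 of the 45 genes. Near-identical transcripts (at least 200 bases, 90% identity) were found with BLAST 2.17.0. The scripts ran under Python 3.11.15 with pandas 2.3.3, numpy 2.4.6, matplotlib 3.10.9 and scipy 1.17.1. Alternatives were pseudocounts of 0.1 and 0.01, other filters and thresholds, dropping AAV-ctrl 1 or AAV-ctrl 2, and rescaling by median ratios or to equal FPKM totals (with and without haemoglobin genes).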

Additional observations from a re-analysis of the deposited data

How the results depend on the processing

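The count of 10 genes lower by 1 unit became 17 with a pseudocount of 0.1 or 0.01 (4.34% and 4.65% of all genes). It was 5 of 12 genes with a filter of 5 FPKM (1.54% of all genes) and 25 at a threshold of 0.5 (7.01%). At 1.5 units it was 1, and the share over all genes was not computed. It was 4 of 19 among genes without shared sequence, an alternative chosen after seeing the data, for which the share over all genes was not computed. It was 9 or 10 under the 3 rescalings and without a filter, and ran from 10 to 13 when 1 AAV-ctrl library was left out. The share over all genes was 2.11% with equal totals, 3.22% when AAV-ctrl 1 was dropped and 2.66% when AAV-ctrl 2 was. The count of genes higher by 1 unit was 0 under the pseudocounts, filters, rescalings, left-out libraries and the threshold of 0.5, and was not computed for the others. Such genes were rare in all: 28 to 49 of 9130 under the pseudocounts, rescalings and left-out libraries. They were 30 of 16072 without a filter and 22 of 6048 with the filter of 5 FPKM. The count over all genes was not computed for the threshold of 0.5. A count of 0 among the replication genes is thus near the background. The median difference of -0.69 became -1.04 and -1.08 with pseudocounts of 0.1 and 0.01 and -0.41 with the filter of 5 FPKM, and ran from -0.75 to -0.67 when 1 AAV-ctrl library was left out. Of 315 differences of single genes under alternatives, 73 shifted beyond the SD between AAV-ctrl 1 and 2. Tyms changed sign under equal FPKM totals (0.02) and without AAV-ctrl 2 (0.09), and Gins3 without AAV-ctrl 2 (0.11). No paired analysis was possible because replicate number 2 is the one number common to AAV-ctrl and AAV-IL27. A single AAV-IL27 library leaves its own spread unknown.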
